A study of Homo sapiens with 8 samples.

Results

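The surfactant, secretoglobin and mucin genes of the lung epithelium were followed on promoter arrays that compared DNA precipitated with SMAD3 to a mock precipitation. A list of 8 genes was taken by symbol, and 7 of them (SFTPB, SFTPC, SFTPD, SCGB1A1, SCGB3A1, MUC1 and MUC4) had probes, out of 17133 genes to which the arrays assigned probes. MUC5B was not found among the probe annotations and was not analysed here. The 7 genes were covered by 179 probes, between 20 for SFTPD and 31 for SFTPC, at annotated distances from -5497 to 2947 bp of the transcription start.

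Chromatin immunoprecipitation followed by promoter arrays (ChIP-on-chip) was carried out in A549, a single cell line from a lung alveolar epithelial carcinoma that was serum-starved before each experiment. Unstimulated cells were left untreated, and TGFβ1-stimulated cells received 2 ng/ml TGFβ1, for up to 2 h by the labels, while the study's text gives a shorter time for these arrays. Each condition had 2 samples that the labels call biological replicates, and each sample was hybridised to a set of 2 slides holding different probes, so that 8 arrays gave 4 replicates. On every array the SMAD3 IP carried Cy5 and the mock IP, made with an anti-FLAG antibody from cells of the same condition, carried Cy3, with no dye swap. Both conditions therefore share the dye assignment, and a dye effect on a ratio cannot be told apart from enrichment, whereas it is common to both sides of a change.

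SFTPB and SFTPC encode the hydrophobic surfactant proteins that lower surface tension in the alveolus, and SFTPD encodes a collectin that binds microbes in the airspace. SCGB1A1, the club cell secretory protein, and SCGB3A1 are small secreted proteins of the conducting airway. MUC1 and MUC4 are membrane-bound mucins of the epithelial surface, whereas MUC5B is a secreted, gel-forming mucin. SMAD3 is phosphorylated by the activated TGFβ receptor, enters the nucleus with SMAD4 and binds short DNA elements, often beside partner factors such as AP-1, and TGFβ is known for restraining surfactant gene expression in lung epithelial cells. DNA arrays hold no transcript levels, so whether these A549 cells expressed the genes was not measured here.

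The measurement was log2 of SMAD3 IP over mock IP signal, set to 0 at the median of each array. A ratio below 0 therefore means less SMAD3 IP relative to mock IP than at the median probe of that array. On each array 39.1% to 53.0% of mock IP signals and 45.5% to 58.3% of SMAD3 IP signals were surrogate values, set for dim spots. The array median was thus taken over many dim probes. Over 473007 probes the ratios of the 2 replicates correlated at r = 0.90 in unstimulated and r = 0.92 in TGFβ1-stimulated cells, but at r = 0.21 on average between conditions. For the mock IP signal alone these values were 0.94, 0.97 and 0.69. The mock IP, which carries no SMAD3 antibody, thus also differed more between conditions than between replicates, and what this contributes to the changes below was not tested. A probe is called measured here if it was well above background in both channels in all 4 replicates, which held for 160926 probes. Of the 179 probes of the 7 genes, 105 were measured, from 6 of 20 in SFTPD to 24 of 31 in SFTPC. Ratios of single probes are given only for measured probes, since the others have only a bound in at least 1 channel.

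The promoters of 4 of the genes are shown first because the array places measured probes at such distances from its own annotated starts and because they differ in the short elements that SMAD3 and AP-1 bind. The windows run from 250 bp before to 50 bp after a RefSeq start in GRCh38.p14, 5′ to 3′ on the minus strand, and capitals mark exact matches on either strand to CAGAC (a SMAD binding element), GTCTAGAC (its palindrome), GGCGC (the GC-rich SMAD motif), TGACTCA (the AP-1 site) and TGTTTAC (a FOXA core). Windows were given for 5 of the 8 genes. Whether these starts are the ones to which the array distances refer was not compared, so a probe's place within a window is not known. The study's methods name hg17 as the assembly of its genomic analyses, the array files name none, and whether the array's coordinates are in hg17 was not checked.
MUC1, chr1:155192866-155193165: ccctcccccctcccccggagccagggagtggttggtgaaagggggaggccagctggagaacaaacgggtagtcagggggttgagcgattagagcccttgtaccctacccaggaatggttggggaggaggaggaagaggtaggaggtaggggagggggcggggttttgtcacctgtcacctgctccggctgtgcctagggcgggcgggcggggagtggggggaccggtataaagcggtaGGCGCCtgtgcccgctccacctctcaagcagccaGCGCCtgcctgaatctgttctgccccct
SCGB3A1, chr5:180591450-180591749: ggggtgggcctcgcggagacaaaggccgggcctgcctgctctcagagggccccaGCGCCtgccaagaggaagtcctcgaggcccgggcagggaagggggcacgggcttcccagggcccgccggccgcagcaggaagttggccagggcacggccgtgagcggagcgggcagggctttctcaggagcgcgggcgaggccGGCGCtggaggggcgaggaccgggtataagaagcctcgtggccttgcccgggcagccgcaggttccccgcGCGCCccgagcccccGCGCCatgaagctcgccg
SFTPB, chr2:85668692-85668991: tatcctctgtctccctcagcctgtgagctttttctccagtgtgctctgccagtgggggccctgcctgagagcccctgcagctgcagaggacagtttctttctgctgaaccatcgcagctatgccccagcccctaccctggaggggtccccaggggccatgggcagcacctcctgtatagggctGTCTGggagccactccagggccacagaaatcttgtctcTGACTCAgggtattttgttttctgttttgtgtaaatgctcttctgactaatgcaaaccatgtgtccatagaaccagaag
MUC4, chr3:195811880-195812179: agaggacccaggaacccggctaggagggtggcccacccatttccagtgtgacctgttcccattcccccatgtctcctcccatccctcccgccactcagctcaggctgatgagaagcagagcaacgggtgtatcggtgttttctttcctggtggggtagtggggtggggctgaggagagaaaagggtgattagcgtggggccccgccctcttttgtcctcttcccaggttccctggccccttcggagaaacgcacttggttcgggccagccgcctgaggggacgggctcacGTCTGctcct

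MUC1 and SCGB3A1 held the GC-rich motif and no CAGAC. In MUC1 it began at -12, -11 and 23 bp, the first pair being the same palindromic stretch read on both strands. In SCGB3A1 it began at -196, -53, 18 and 33 bp. SFTPB held CAGAC at -67 bp and the AP-1 site at -29 bp, and MUC4 held CAGAC at 41 bp. In a window around a second SFTPB start, 542 bp further downstream, CAGAC began at -206 bp and TGACTCA at 22 bp. The SFTPD window, which is not shown because the array places no measured probe at such distances, held TGACTCA at -109 bp. Neither GTCTAGAC nor TGTTTAC occurred in a member window. Among all 35116 windows, 45.3% held CAGAC, 48.6% GGCGC, 4.95% TGACTCA, 3.42% TGTTTAC and 0.202% GTCTAGAC, so a match to either of the 5-letter motifs is common by length alone.

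Along the 7 genes, probes differed between the conditions in both directions, and most genes held both. Of the 179 probes, 26 were higher and 30 lower after stimulation (limma, adjusted p below 0.05), beside 10.5% and 12.4% of all probes tested. Among the 105 measured probes 22 were higher and 23 lower, beside 19.0% and 25.5% of all measured probes, so the share that changed was near that of the arrays as a whole. SFTPB was the gene with calls in 1 direction only, 3 measured probes being higher and none lower. SFTPC had 5 measured probes higher and 6 lower, SCGB3A1 had 3 and 6, MUC1 had 4 and 4, SCGB1A1 had 3 and 3, MUC4 had 3 and 2, and SFTPD had 1 and 2.

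**Figure D1:**
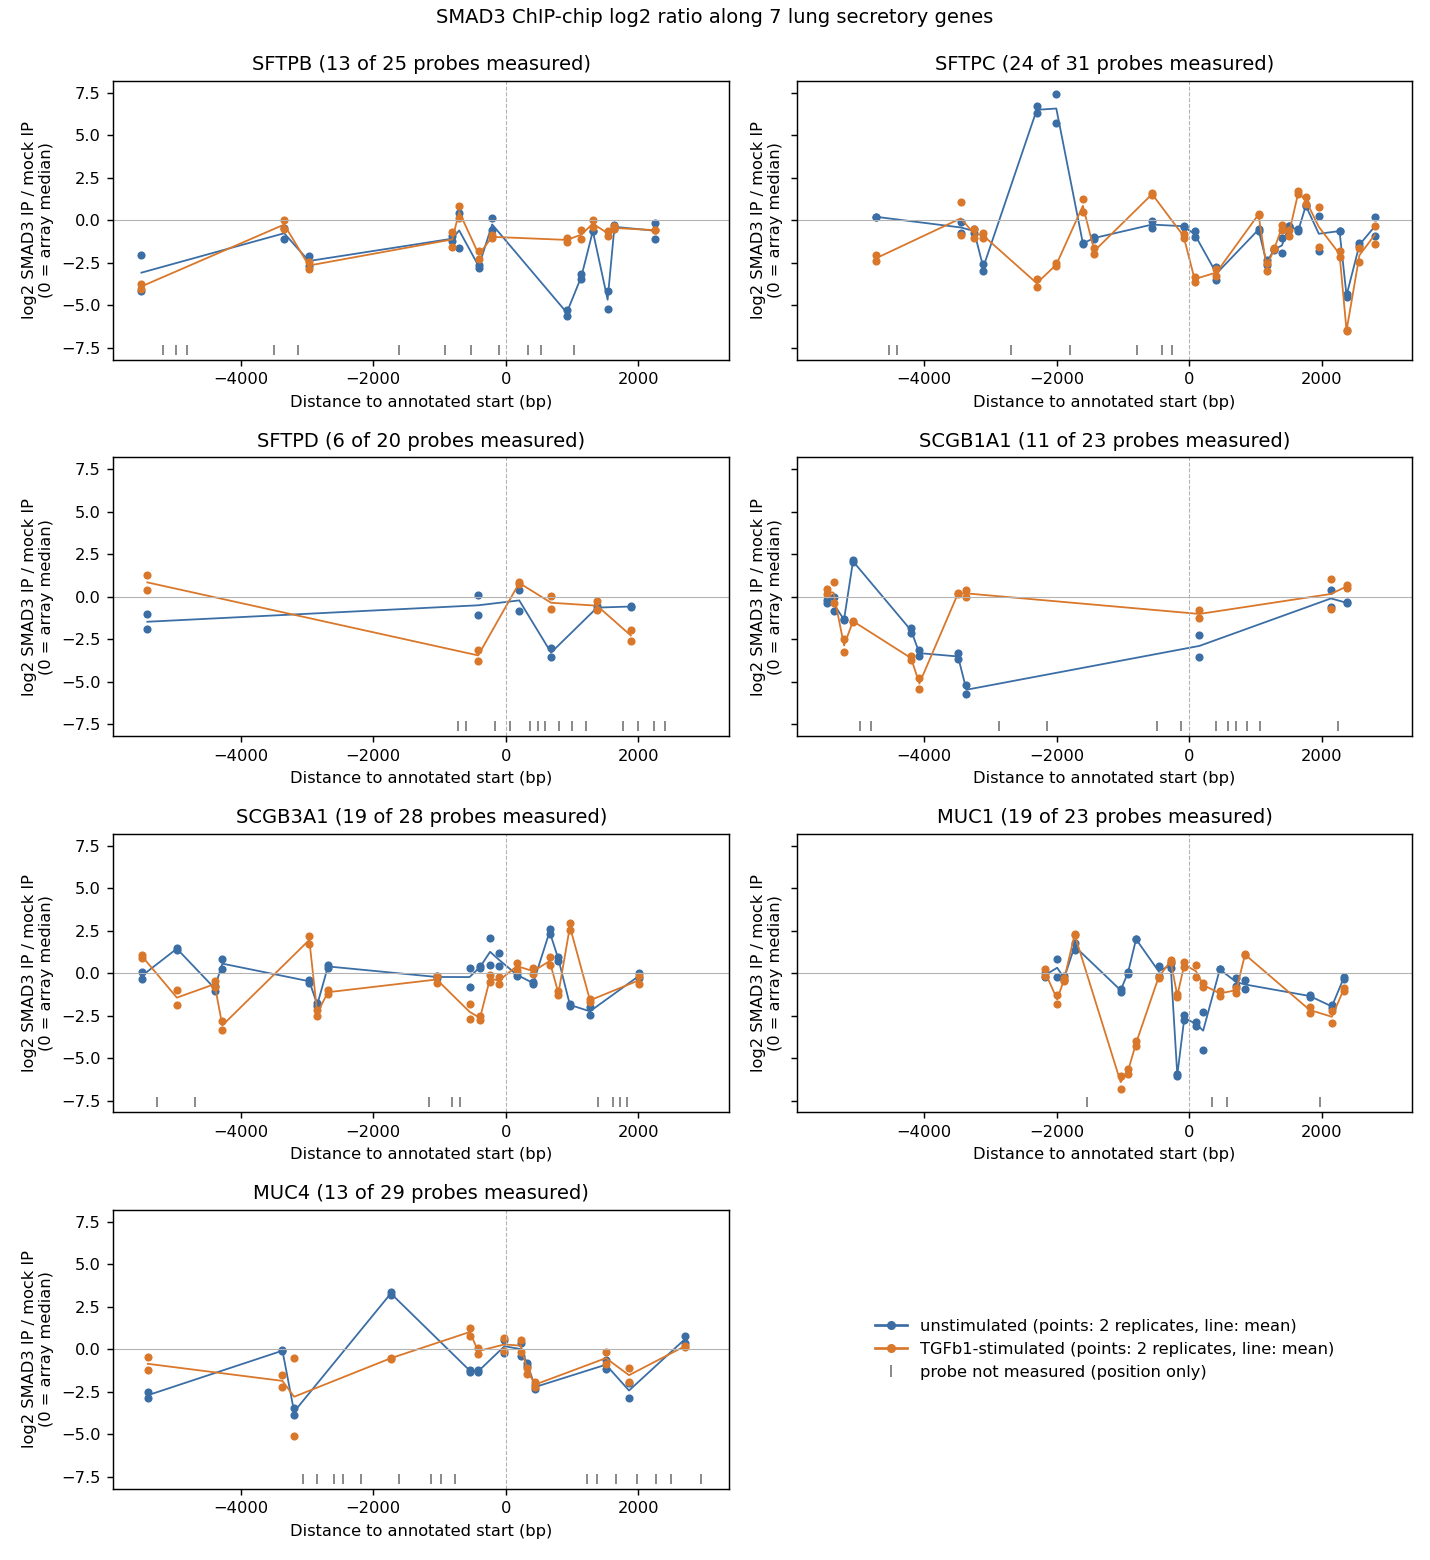
Enrichment as log2 SMAD3 IP over mock IP (y axis, 0 being the array median) against the annotated distance to the start in bp (x axis) for the measured probes of each gene, with 2 points per condition for the replicates, a line through their means, and grey ticks for probes that were not measured. The 2 unstimulated SFTPC probes at -2298 and -2003 bp stand above all other measured probes of the 7 genes, and the MUC1 profile is lower after TGFβ1 from -1033 to -800 bp and higher from -178 to 104 bp.

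Against the array median, 10 of the 105 measured probes were above it and 44 below in unstimulated cells, beside 22.5% and 34.2% of all measured probes. After TGFβ1 11 were above and 45 below, beside 20.9% and 38.5%. Where 0 lies decided these counts. Over all 179 probes 14 were above and 52 below in unstimulated cells and 13 and 56 after TGFβ1, whereas with the deposited ratios, in which the array medians stood at 0.24 to 0.72, 34 were above 0 and 46 below and then 49 and 54. Probes at most 200 bp apart moved only partly together. Across 44 such pairs of neighbouring measured probes of these genes the changes correlated at r = 0.61, with the same sign in 25 pairs. Across 70128 pairs of all genes they correlated at r = 0.33, with the same sign in 38697, so the share of same-sign pairs was similar. These pairs share their arrays and precipitated fragments, and the correlations are given as a description.

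Averaged over all probes of a gene, SFTPB was higher after TGFβ1, SFTPC, SFTPD, SCGB3A1 and MUC1 were lower, and SCGB1A1 and MUC4 did not pass the threshold. That is 1 gene higher and 4 lower of 7, beside 20.9% higher and 28.7% lower of the 16944 genes with at least 3 probes. The median change of the 7 genes was -0.36, and that of all genes tested was -0.05. Every gene mean lay below the array median after TGFβ1 (7 of 7 passing the test, beside 58.9% of all genes), and 6 of 7 did so in unstimulated cells (beside 54.5%). None was above it in either condition, beside 9.25% and 7.21% of all genes. SCGB3A1 in unstimulated cells was the exception, with 0.04 and -0.13 in the 2 replicates. Under loess normalisation within arrays, 1 of the genes was above and 3 below in unstimulated cells and none above and 6 below after TGFβ1, while the share of all called genes that lay above moved from 14.5% to 50.8% and from 10.9% to 51.8%.

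In unstimulated cells the gene means fell in the order SFTPB -1.70, MUC4 -0.80, MUC1 -0.71, SCGB1A1 -0.50, SFTPD -0.38, SFTPC -0.28 and SCGB3A1 -0.04. The replicate values of SFTPB overlapped with no other gene, whereas those of MUC4 and MUC1, of SFTPD and SCGB1A1, and of SFTPC and SFTPD overlapped. After TGFβ1 the lowest means were SFTPD at -1.21, SFTPC at -1.13 and MUC1 at -1.07, whose replicates overlapped, and the highest was SCGB3A1 at -0.45. SFTPB, the lowest gene before stimulation, then stood at -0.75, beside SCGB1A1 at -0.76 and MUC4 at -0.83, with overlapping replicates. The stimulated replicates of SCGB3A1 and SFTPB met at -0.59, and those of MUC4 overlapped those of SFTPD, SFTPC and MUC1. The replicates therefore did not separate these groups. These levels average different probes in each gene, and their order is given as a description.

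**Figure D2:**
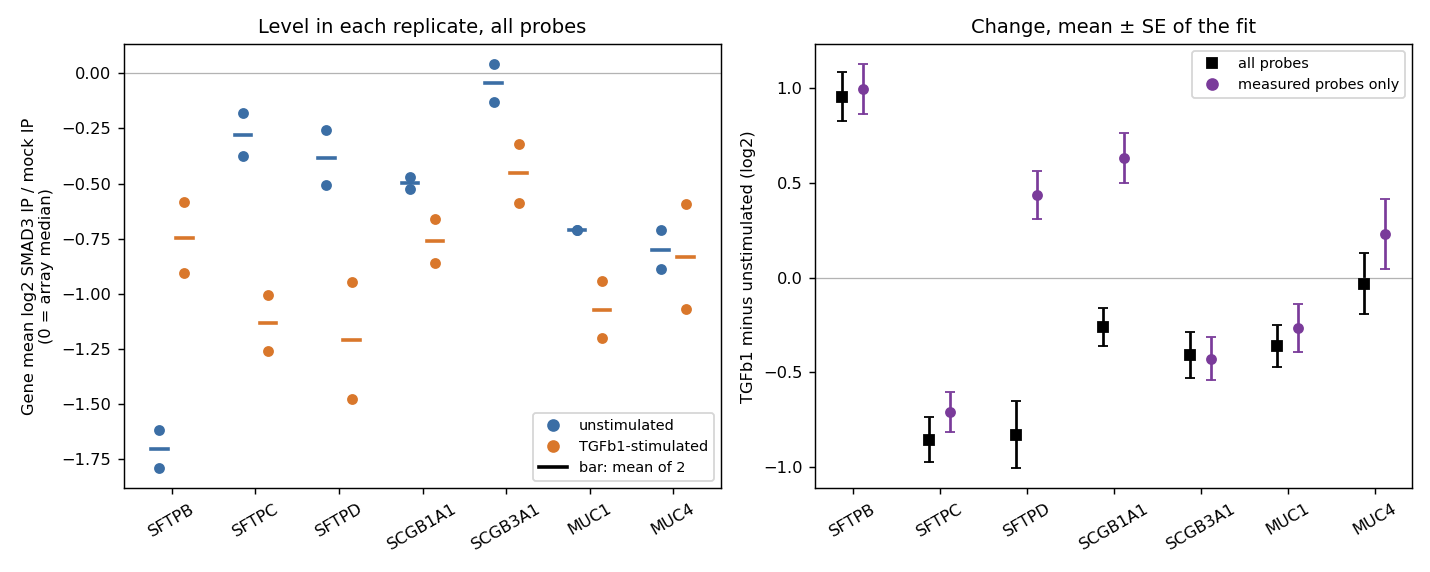
Left, the mean log2 ratio over all probes of each gene in each replicate (y axis) for unstimulated and TGFβ1-stimulated cells, with bars at the mean of 2. Right, the change with the standard error of the fit, over all probes and over measured probes only, where SFTPB is positive under both and SFTPD, SCGB1A1 and MUC4 turn from negative to positive, MUC4 passing under neither.

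SFTPB was 0.96 higher after TGFβ1 on the log2 scale. Its mean over 25 probes (chr2:85746551-85754343 in the array's coordinates) was -1.62 and -1.79 in the unstimulated and -0.59 and -0.91 in the stimulated replicates, so the conditions did not overlap (SE 0.13, limma adjusted p = 0.00093). The 3 measured probes called higher lay inside the gene, and 2 further called probes were not measured. At 919 bp the ratio was -5.25 and -5.61 before and -1.05 and -1.25 after TGFβ1, a change of 4.28 (SE 0.19, limma adjusted p = 0.0033). The probes at 1139 and 1535 bp rose by 2.47 and 3.91 (limma adjusted p = 0.014 and 0.016). Between them, the probe at 1312 bp read -0.64 and -0.62 before and 0.00 and -0.38 after (limma adjusted p = 0.24). In the 3 risen probes the stimulated ratio remained at or below -0.56, so the rise was towards the array median and not above it. The mock IP signal of these probes fell by 4.62, 2.35 and 7.20, while the SMAD3 IP signal changed by -0.46, 0.01 and -3.41.

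In the SFTPB promoter no measured probe passed the test. The measured probe nearest the start, at -207 bp, read 0.11 and -0.59 in unstimulated and -0.88 and -1.06 in stimulated cells (change -0.73, SE 0.30, limma adjusted p = 0.25). Its unstimulated replicates differed widely in signal, at 4.87 and 10.44 in the mock IP and 5.17 and 9.97 in the SMAD3 IP. The probe with the highest mean ratio, at -704 bp, and the one with the lowest, at -5497 bp, did not pass either, the latter reading -2.01 and -4.14 in the unstimulated replicates. At -5497 bp the unstimulated mock IP signals also lay far apart, at 2.22 and 9.12. The 10 measured probes other than those at 919, 1139 and 1535 bp changed by 0.08 on average, against 0.89 for all 13, a comparison made after the values were seen. Restricted to the 10 probes from 2000 bp upstream to 800 bp downstream, the gene mean changed by 0.08 (SE 0.17, limma adjusted p = 0.75). With the normexp background correction the gene change was 0.55 (limma adjusted p = 0.059) and the call was lost, as was the call at 919 bp (2.16, limma adjusted p = 0.47). At 1535 bp the call was lost without either stimulated replicate and at 1139 bp without either unstimulated one, with changes of 3.38 to 4.44 and 2.19 to 2.75 over the fits that left out 1 replicate.

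SFTPC carried the largest changes of the 7 genes. At -2298 bp the ratio was 6.71 and 6.30 in unstimulated and -3.47 and -3.92 in stimulated cells, so that it fell by 10.20 (SE 0.26, limma adjusted p = 0.0020). At -2003 bp it was 7.44 and 5.72 before and -2.68 and -2.53 after, and fell by 9.19 (SE 0.69, limma adjusted p = 0.0073). By size of change these were the 287th and 558th of the 160926 measured probes. Here it was the SMAD3 IP signal that moved, with changes of -9.43 and -8.72 against mock IP changes of 0.88 and 0.58. Both probes are assigned to a divergent promoter shared with LGI3, a neighbouring gene, as are 17 of the 31 SFTPC probes, so that the signal cannot be placed with either gene. The measured probes on either side, at -3105 and -1602 bp, were 1.86 and 2.21 higher after TGFβ1.

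The named probes inside SFTPC also fell after TGFβ1, but by less than the upstream pair. The measured probe nearest the start, at 83 bp inside the gene, read -0.63 and -1.0 before and -3.31 and -3.60 after TGFβ1, a change of -2.64 (SE 0.21, limma adjusted p = 0.0080). The probe with the lowest ratio of the gene, at 2375 bp, read -4.48 and -4.34 before and -6.51 and -6.46 after (change -2.07, SE 0.11, limma adjusted p = 0.0042). At 83 and 2375 bp the mock IP signal rose by 1.31 and 1.77, and the SMAD3 IP signal changed by -1.44 and -0.41. The gene mean fell from -0.18 and -0.38 to -1.0 and -1.26, without overlap (change -0.85, SE 0.12, limma adjusted p = 0.0011; 31 probes, chr8:22070387-22077955 in the array's coordinates). Among measured probes the fall rested on the pair upstream: the other 22 changed by -0.02 on average, against -0.82 for all 24. This comparison was made after the values were seen and leaves out the probes that were not measured. Between 2000 bp upstream and 800 bp downstream the gene mean changed by -0.15 (limma adjusted p = 0.50). Under normexp correction the upstream pair changed by -4.96 and -4.20 and no longer passed (limma adjusted p = 0.10 and 0.084), whereas the calls at 83 and 2375 bp held at -1.87 and -1.75. The call at -2003 bp was also lost without either stimulated replicate (changes from -10.05 to -8.33 over the 4 fits), and that at 83 bp in 3 of the 4 fits that left out 1 replicate, with changes from -2.83 to -2.46.

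SFTPD was the most thinly measured gene, with 6 of 20 probes (chr10:81696408-81704275 in the array's coordinates) above background throughout. At -418 bp, the lowest of its probes, the ratio was 0.08 and -1.08 in unstimulated and -3.77 and -3.13 in stimulated cells, a change of -2.95 (SE 0.53, limma adjusted p = 0.044). At 682 bp it rose by 2.93 (SE 0.38, limma adjusted p = 0.022), and at 1885 bp it fell by 1.70 (SE 0.27, limma adjusted p = 0.033). At -418, 682 and 1885 bp the mock IP signal changed by 3.59, -2.60 and -0.70. The SMAD3 IP signal of these probes changed by 0.71, 0.40 and -2.33. The measured probe nearest the start, at 202 bp, read -0.82 and 0.39 before and 0.76 and 0.85 after TGFβ1, and its change of 1.02 did not pass (SE 0.49, limma adjusted p = 0.32).

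The direction of SFTPD as a gene depended on which probes entered. Over all 20 probes it was -0.26 and -0.51 before and -0.95 and -1.47 after TGFβ1 (change -0.83, SE 0.18, limma adjusted p = 0.0074), while over the 6 measured probes, with arrays centred on such probes, it was 0.44 higher (SE 0.13, limma adjusted p = 0.026). The calls at -418 and 682 bp held in none of the 4 fits that left out 1 replicate, with changes from -3.53 to -2.37 and from 2.55 to 3.32, and that at 1885 bp was lost without either unstimulated replicate, with changes from -2.02 to -1.39. All 3 calls were lost with the normexp correction, where the changes were -0.57, 0.72 and -0.87.

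In SCGB1A1 the largest called changes of measured probes lay far upstream. At -3359 bp the ratio was -5.72 and -5.22 in unstimulated and 0.01 and 0.39 in stimulated cells, a rise of 5.67 (SE 0.27, limma adjusted p = 0.0035). At -3486 bp it rose by 3.71, from -3.69 and -3.34 to 0.25 and 0.14 (SE 0.17, limma adjusted p = 0.0035). In this pair of neighbours the mock IP signal fell by 5.73 and 4.76, while the SMAD3 IP signal changed by 0.01 and -0.98. Further upstream, at -5070 bp, the ratio went the other way, from 2.13 and 2.04, the highest of the gene, to -1.47 and -1.41, a change of -3.52 (SE 0.10, limma adjusted p = 0.0022), and here the SMAD3 IP signal fell by 5.03 and the mock IP signal by 1.57. The lowest probe, at -4069 bp, fell by 1.79 (SE 0.31, limma adjusted p = 0.041).

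Close to the SCGB1A1 start only the probe at 156 bp was measured, reading -3.55 and -2.24 before and -0.77 and -1.25 after TGFβ1 (change 1.88, SE 0.56, limma adjusted p = 0.13). The gene mean over 23 probes (chr11:61937609-61945498 in the array's coordinates) was -0.52 and -0.47 before and -0.86 and -0.66 after, and its change of -0.26 did not pass (SE 0.10, limma adjusted p = 0.069). It was 0.63 over the 11 measured probes (limma adjusted p = 0.0083) and -2.14 over the 6 probes from 2000 bp upstream to 800 bp downstream (limma adjusted p = 0.00015), of which only 1 was measured. Without stimulated replicate 2 the change over all probes was -0.36 and passed (limma adjusted p = 0.047). Under normexp correction the call at -5070 bp held at -2.66 and those at -3359, -3486 and -4069 bp were lost, at 2.64, 1.47 and -1.35, and the last held in none of the 4 fits that left out 1 replicate (changes from -2.13 to -1.45).

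SCGB3A1 stood closest to the array median of the 7 genes and had called probes on both sides of its start. At 966 bp, the most changed, the ratio was -1.92 and -1.82 in unstimulated and 2.93 and 2.53 in stimulated cells, a rise of 4.61 (SE 0.19, limma adjusted p = 0.0029) that took it from below to above the array median. Both channels moved, the SMAD3 IP signal rising by 2.01 and the mock IP signal changing by -2.48. In the opposite direction the probe at -4277 bp fell by 3.63 (SE 0.32, limma adjusted p = 0.010). At -390 bp it fell by 2.99, from 0.43 and 0.27 to -2.53 and -2.75 (SE 0.14, limma adjusted p = 0.0037). The probe with the highest mean, at 660 bp, went from 2.58 and 2.29 to 0.45 and 0.96 (change -1.73, SE 0.25, limma adjusted p = 0.027). At -4277, -390 and 660 bp the mock IP signal rose by 3.37, 1.42 and 1.24. The SMAD3 IP signal of these probes changed by -0.38, -1.69 and -0.60.

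In the SCGB3A1 promoter, the measured probes at -238 and -107 bp were lower after TGFβ1 (changes of -1.56 and -1.24) but did not pass (limma adjusted p = 0.26 and 0.12). At -238 bp the unstimulated replicates themselves read 0.45 and 2.05. At -107 bp their signals differed widely, at 4.78 and 9.34 in the mock IP and 6.14 and 9.89 in the SMAD3 IP. The lowest probe, at -2845 bp, read -1.96 and -1.75 before and -2.18 and -2.50 after (limma adjusted p = 0.20). The gene mean over 28 probes (chr5:179949049-179956599 in the array's coordinates) was 0.04 and -0.13 before and -0.32 and -0.59 after TGFβ1 (change -0.41, SE 0.12, limma adjusted p = 0.026). This call was lost without unstimulated replicate 1 (-0.32, limma adjusted p = 0.069) and without stimulated replicate 2 (-0.27, limma adjusted p = 0.14), and the normexp correction brought the change to -0.01. The calls at -4277 and 660 bp held neither with the normexp correction, where the changes were -0.76 and -0.05, nor in any of the 4 fits that left out 1 replicate (-3.92 to -3.34 and -1.99 to -1.48), whereas those at 966 and -390 bp held in all of these.

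MUC1 showed runs of neighbouring probes that moved together in opposite directions. From -1033 to -800 bp, where the array annotation names the promoter for both MUC1 and the microRNA gene hsa-mir-92b, 3 adjacent probes fell. At -800 bp the ratio was 2.01 and 1.98 in unstimulated and -3.98 and -4.28 in stimulated cells, a change of -6.12 (SE 0.15, limma adjusted p = 0.0020). At -922 bp it fell by 5.78 (SE 0.16, limma adjusted p = 0.0021). At -1033 bp, where it reached the lowest mean of the gene, it fell by 5.41, from -0.91 and -1.10 to -6.04 and -6.79 (SE 0.32, limma adjusted p = 0.0049).

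Across the MUC1 start the opposite held. At -72 bp, the measured probe nearest the start, the ratio rose by 3.15, from -2.50 and -2.79 to 0.65 and 0.36 (SE 0.19, limma adjusted p = 0.0049). Its neighbours at -178 and 104 bp, named after their values were seen, rose by 4.67 and 3.10 (limma adjusted p = 0.0021 and 0.012). None of the 3 was above the array median by the test in either condition. The highest probe, at -1727 bp, read 1.77 and 1.39 before and 2.31 and 2.22 after TGFβ1, above the array median in both conditions, and did not pass the test of change (0.69, limma adjusted p = 0.10).

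In both MUC1 runs the mock IP moved more than the SMAD3 IP. In the fallen run the mock IP signal rose by 7.63, 3.70 and 5.64 at -1033, -922 and -800 bp, with SMAD3 IP changes of 2.10, -2.19 and -0.59. In the risen run it fell by 7.48, 2.77 and 4.68 at -178, -72 and 104 bp, with SMAD3 IP changes of -2.92, 0.26 and -1.70. All 6 calls held with the normexp correction, at -4.91, -4.88, -4.46, 4.34, 3.42 and 2.82 in order of position. Those at -1033 and 104 bp were lost without either unstimulated replicate and that at -72 bp without unstimulated replicate 2, with changes from -5.79 to -5.04, from 2.76 to 3.44 and from 3.0 to 3.29.

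As the runs offset each other, the gene mean of MUC1 over 23 probes (chr1:153426971-153431516 in the array's coordinates) changed little, from -0.71 and -0.71 to -0.94 and -1.20 (change -0.36, SE 0.11, limma adjusted p = 0.029). It was -0.26 over the 19 measured probes (limma adjusted p = 0.12), -0.13 after loess (limma adjusted p = 0.35), -0.01 with normexp (limma adjusted p = 0.93) and -0.23 without stimulated replicate 2 (limma adjusted p = 0.12), and passed under none of these.

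MUC4 changed least as a gene. Its mean over 29 probes (chr3:197020573-197028968 in the array's coordinates) was -0.71 and -0.89 in unstimulated and -0.59 and -1.07 in stimulated cells, the conditions overlapping (change -0.03, SE 0.16, limma adjusted p = 0.88). Single probes moved in both directions. At -1735 bp, the highest of the gene, the ratio went from 3.20 and 3.39 to -0.49 and -0.54, a change of -3.81 (SE 0.12, limma adjusted p = 0.0023), with a rise of 2.14 in the mock IP and a change of -1.78 in the SMAD3 IP. At -544 bp it rose by 2.27, from -1.19 and -1.30 to 1.24 and 0.81 (SE 0.20, limma adjusted p = 0.0096), and here the SMAD3 IP signal rose by 2.18 and the mock IP signal changed by 0.02. At -5401 bp it rose by 1.85 (SE 0.34, limma adjusted p = 0.047).

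The MUC4 probe nearest the start, at -21 bp, read 0.58 and -0.20 before and 0.68 and -0.09 after TGFβ1, so that the conditions overlapped (change 0.11, SE 0.44, limma adjusted p = 0.92). The lowest probe, at -3194 bp, read -3.87 and -3.46 before, but -0.47 and -5.09 in the 2 stimulated replicates, which differed from each other by more than the conditions did (change 0.88, SE 1.83). Under normexp correction the call at -544 bp held at 0.49 and those at -1735 and -5401 bp were lost, at -1.07 and 0.45. The call at -544 bp was lost without either unstimulated replicate (2.06 to 2.49) and that at -5401 bp held in none of the 4 fits that left out 1 replicate (1.47 to 2.23).

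A change of ratio can come from either channel. In 28 of the 45 called measured probes the mock IP signal changed by more than the SMAD3 IP signal, and in 17 the SMAD3 IP signal changed by more. Over all 71508 called measured probes of the arrays, the mock IP changed by more in 58.0%. By gene, the mock IP moved more in 3 of 3 called probes in SFTPB, 7 of 8 in MUC1, 6 of 9 in SCGB3A1, 5 of 11 in SFTPC, 3 of 6 in SCGB1A1, 2 of 3 in SFTPD and 2 of 5 in MUC4. After quantile normalisation of each channel the total was 27 of 45. The single-channel values were centred on array medians, which does not remove differences in brightness between arrays: the unstimulated gene means of the mock IP signal differed between replicates by an SD of 0.81 to 1.02 in the 5 genes on slide 1.

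**Figure D3:**
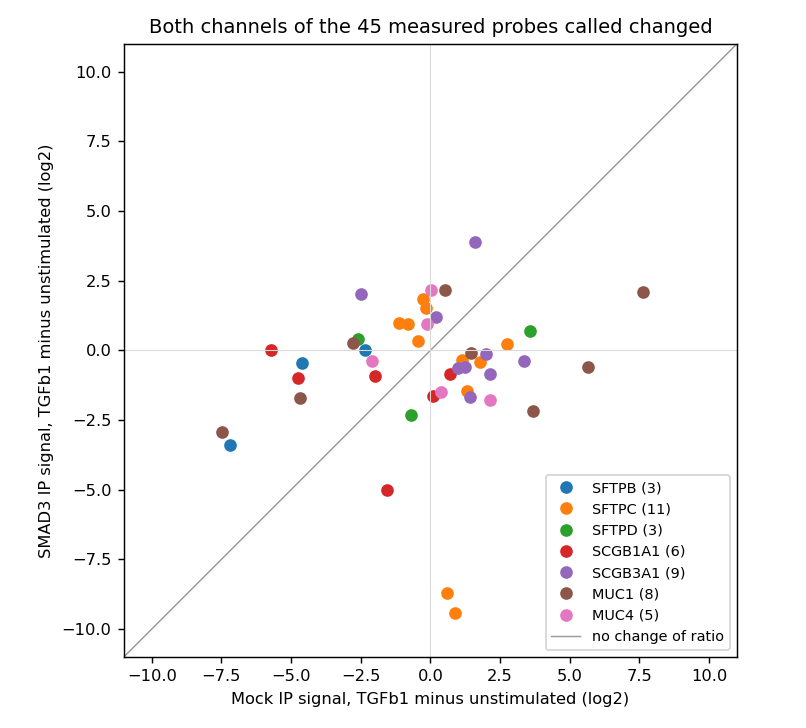
Change of the mock IP signal (x axis) and of the SMAD3 IP signal (y axis), TGFβ1 minus unstimulated on the log2 scale, for the 45 measured probes called changed, coloured by gene, with a diagonal where the ratio would not change. The SFTPC probes at -2298 and -2003 bp lie at the bottom with SMAD3 IP changes of -9.43 and -8.72, whereas the MUC1 and SFTPB probes spread along the mock IP axis.

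**Figure D4:**
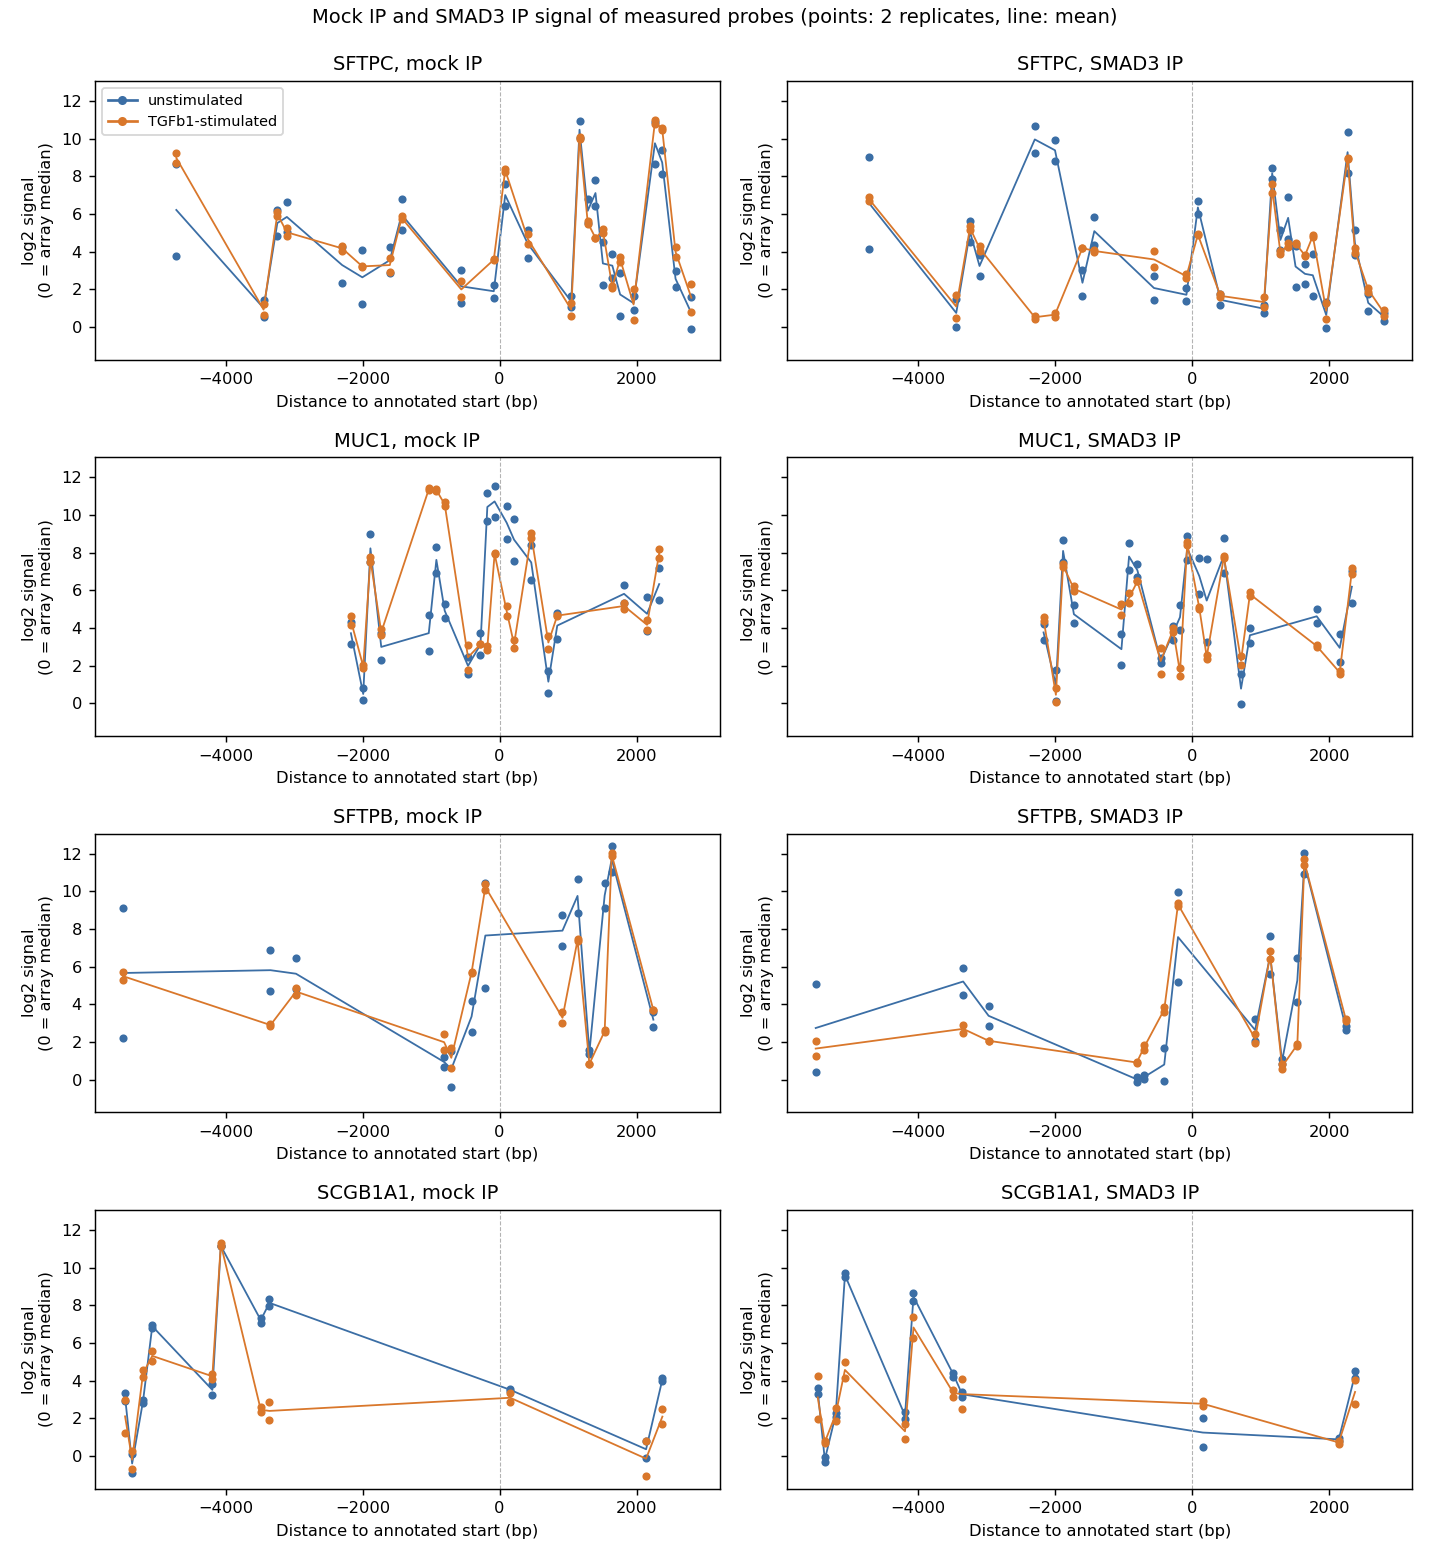
log2 signal of the mock IP (left) and SMAD3 IP (right), centred on the array median (y axis), against the distance to the start in bp (x axis) for the measured probes of SFTPC, MUC1, SFTPB and SCGB1A1, with 2 replicate points per condition and lines through their means. The unstimulated SMAD3 IP peak upstream of SFTPC has no counterpart in the mock IP, and in MUC1 the stimulated mock IP is higher from -1033 to -800 bp and lower from -178 to 104 bp.

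Averaged over whole genes, neither channel changed by the test. The mock IP signal passed in 0 of 7 genes (limma, 2 at an unadjusted p below 0.05), beside 9.84% of all genes, and the SMAD3 IP signal in 0 of 7 (limma, 1 at an unadjusted p below 0.05), beside 1.22%. The largest mock IP change was in SFTPB, from 3.43 and 4.78 to 2.79 and 2.92 (-1.25, SE 0.49, limma adjusted p = 0.20), and the largest SMAD3 IP change was in MUC4, from 0.86 and 2.00 to 2.42 and 1.97 (0.77, SE 0.43, limma adjusted p = 0.55). Quantile normalisation of the channels brought 5 of 7 genes past the threshold in each, so these counts depended on how the channels were scaled.

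Other genes of the same families were read for comparison, from lists chosen with earlier results of these data known. Among 39 listed genes 23 had at least 3 probes. Of these, 2 were higher and 9 lower after TGFβ1, beside 20.9% and 28.7% of all genes tested. Their median change was -0.17, beside -0.05 for all genes. The same shares of all genes apply to the counts of each list that follow. Of 6 further surfactant and alveolar type II genes 1 was higher and 1 lower. NAPSA, the aspartic protease that processes surfactant protein B, was 1.21 higher (SE 0.14, limma adjusted p = 0.00054), from -1.96 and -2.08 to -1.02 and -0.61, and ABCA3, the lipid transporter of lamellar bodies, was 0.49 lower (limma adjusted p = 0.0071).

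Of 6 further secretoglobins 4 were lower and none higher, beside 28.7% and 20.9% of all genes, but 3 of these calls were lost with the normexp correction and that of SCGB1D1 held in none of the 4 fits that left out 1 replicate. The lowest was SCGB1D2, at -1.48 (SE 0.11, limma adjusted p = 6.9e-05), from -0.18 and 0.02 to -1.64 and -1.49. Of 5 further mucins 1 (MUC13, -0.39, limma adjusted p = 0.0081) was lower. Among 6 transcription factors known to act on these genes, TITF1 (NKX2-1), FOXA1 and CEBPA were lower by 0.53, 0.83 and 1.04 in SMAD3 IP over mock IP, and GATA6 was 0.30 higher, whereas FOXA2 and SPDEF did not pass. The FOXA2 value (0.06, limma adjusted p = 0.62) is a mean over 50 probes. The study reported a local SMAD3 peak at the FOXA2 promoter that was higher after TGFβ1, and binding in a gel shift assay. A mean over many probes is an unlike measure and does not test that peak. GATA6 kept its call in 1 of the 4 fits that left out 1 replicate, the one without stimulated replicate 1. With normexp correction 10 of the 11 calls in the lists were lost, among them TITF1 (limma adjusted p = 0.34), FOXA1 (0.051), CEBPA (0.064), GATA6 (0.31) and NAPSA (0.18), and SCGB1D2 alone held, at -0.69. Taking the median over probes left none of the 11. In the window from 2000 bp upstream to 800 bp downstream 10 of them had enough probes, and 5 held: FOXA1, MUC13, NAPSA, SCGB1D2 and SCGB2A1. In that window TITF1, CEBPA and GATA6 changed by -0.03, 0.0062 and 0.29 and did not pass.

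The genes whose 4 replicate means lay nearest to those of SFTPB, the gene with the largest change, were EML2, CT45-6 and SPINK4, at Euclidean distances of 0.11, 0.17 and 0.19 on the log2 scale. EML2 was also averaged over 25 probes and read -1.65 and -1.75 before and -0.68 and -0.89 after TGFβ1. None shared a probe with SFTPB.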

How the data were processed

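The deposited scanner files hold 1 array each, read with Agilent Feature Extraction 9.5.1.1 per the labels. Their intensity columns are background-subtracted, dye-normalised processed signals made by the authors' software, and the deposited value table holds log2 ratios of the same signals (largest difference 3.13e-06). The methods name hg17 for genomic analyses, and the array files name no build. The methods' peak model was not repeated.

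Members were taken by symbol from the annotation of non-control probes, and members and lists were chosen with earlier results of these data known. From 474411 probes 1404 outliers were left out. log2 ratios of the processed SMAD3 IP and mock IP signals were centred on each array's median, with no loess, slides 1 and 2 were joined per replicate, and gene values were means over probes (3 or more). limma 3.58.1 in R 4.3.3 (lmFit, eBayes) was fitted to all probes or genes with Benjamini-Hochberg adjustment at 0.05, testing the change and each condition against 0. SD and SE rest on 2 replicates a condition, and the number of arrays limits the precision. limma was tested on simulated data with these spreads: of 20% of probes changed by 2 on the log2 scale it called 73.7%, and of 200 genes changed by 2 it called 91.5%, with 5.31% and 2.14% of calls false, but with only 200 probes changed, by 1, 2 or 4, it called 0%.

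Named probes of each gene were measured probes: the nearest to the start, those with the highest and lowest mean, and of those called changed the 3 with the largest change. Alternatives were normexp (offset 50), loess, the deposited log2 values uncentred, filters on dim probes, outliers kept, a promoter window, the median over probes, quantile normalisation of the channels, a replicate block, each slide fitted on its own, and each replicate left out in turn. Promoter sequences are from RefSeq (GRCh38.p14). Figures were drawn with matplotlib 3.10.9.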

Additional observations from a re-analysis of the deposited data

How the results depend on the processing

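With the normexp background correction fewer calls were made across the arrays (8066 probes higher and 13394 lower in place of 49727 and 58731), these genes included: 18 changed probes in place of 56, 9 in place of 66 against the array median in unstimulated cells and 23 in place of 69 after TGFβ1, 1 changed gene in place of 5 (SFTPC), and 1 in place of 6 and 3 in place of 7 genes against the median. Of 27 named probes called changed, 14 remained called and 0 reversed. With 105 of 179 probes well above background in both channels throughout, dim signals limit what the other probes can show.

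Taking the median over probes left 0 changed genes (3 at an unadjusted p below 0.05 by limma), 3 and 4 genes against the array median, and 1 changed mock IP signal. The window from 2000 bp upstream to 800 bp downstream left 3 changed genes, and the deposited values without centring also left 3. Those values moved the median change of all genes from -0.05 to 0.10 and the share of higher genes among calls from 42.1% to 59.4%. They also moved the share of called probes above 0 from 33.8% to 69.4% in unstimulated cells and from 30.8% to 75.4% after TGFβ1, where loess gave 49.8% and 51.1%. For the mock IP and SMAD3 IP signals of genes, in place of 0 calls each, either filter on dim probes gave 3 and 3 and quantile normalisation 5 and 5, and separate fits per slide gave 2 for the mock IP.

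Leaving out 1 replicate gave 21 to 35 changed probes, 23 to 57 and 38 to 50 probes against the median, 4 to 5 changed genes and 0 to 7 changed mock IP signals. Each such fit assumes that the lone replicate varies like the others. Of the 27 named probe calls 12 held in all 4 fits.

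Changes of sign arose in SFTPD (0.44 with both channels well above background, 0.19 in the window), SCGB1A1 (0.63 with both channels, 0.24 with the median) and MUC4 (0.13 with loess, 0.12 with the deposited values, 0.23 with both channels, 0.076 with the median, and -0.27 to 0.21 when leaving out 1 replicate). They also arose in CEBPA (0.0062 in the window), in MUC13, SCGB1D1 and SCGB2A2 with the median (0.016, 0.0063 and 0.037), and, among named probes that were not called, in SFTPB at -5497 bp (0.38 with normexp, -1.87 to 0.25 when leaving out 1 replicate), MUC4 at -3194 bp (-0.45 with normexp, -1.43 to 3.19) and MUC4 at -21 bp (-0.28 to 0.50). The cause was not tested.

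No shared deviation of same-numbered replicates was seen, their deviations correlating at 0.02 over all probes. This value cannot show whether those samples were handled together. With a replicate block 52 probes and 6 genes changed, SCGB1A1 (limma adjusted p = 0.033) being the gene added. All arrays were scanned on the same day, so a fit with scan date as a block was not run.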
